A study of Mus musculus with 6 samples.

Results

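The glucocorticoid-responsive genes followed here are Fkbp5, Sgk1, Tsc22d3, Zbtb16, Cdkn1a, Plin4, Mt1, Mt2, Pdk4 and Hif3a. Their members on the array were all non-control probes annotated with one of these 10 names, which gave 20 of the 56605 non-control probes. Of these, 15 were tested, because the scanner software marked them as well above background throughout 1 genotype or both (38463 tested probes in all). Each of the 10 genes kept at least 1 tested probe. The other 5 probes, 1 each for Cdkn1a, Fkbp5, Hif3a, Sgk1 and Tsc22d3, were below that limit on all 6 arrays and are only named.

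Total RNA came from a dissection of brainstem and cerebellum and was hybridised to single-colour (Cy3) Agilent mouse arrays, 1 per sample. The 3 wild-type samples and the 3 samples labelled MSA transgenic share a mixed background of C57BL/6, 129 and C3H, and the series design gives an age of 16 weeks. The labels do not spell out MSA, name the transgene or its promoter, or give sex or time of day. Each title carries a number of its own, which begins with 7 for replicate 1 of each genotype and with 8 for replicates 2 and 3. The labels do not say that these numbers are separate animals, so a p-value here speaks only of the spread between samples, which may be technical. Whether RNA of a gene is lower through fewer cells of a type or through less RNA per cell cannot be told apart in such bulk samples.

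Glucocorticoids enter cells and bind the glucocorticoid receptor, which is held ready by HSP90 and its cochaperones, moves to the nucleus and binds DNA at palindromic response elements. In brain, the adrenal hormone corticosterone rises with the time of day and with stress, and genes such as Fkbp5, Sgk1 and Tsc22d3 respond within hours. Several of the 10 genes also answer to other signals: Cdkn1a to p53, the metallothioneins to zinc and other metals, Pdk4 and Plin4 to fatty acids through PPAR receptors, and Hif3a to oxygen.

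Promoter windows of 250 bases before the annotated starts were available for 9 of the genes (RefSeq, GRCm38.p6; 17 windows, 6 of them for Sgk1 and none for Zbtb16). They are shown because Sgk1 is the member whose level set replicate 1 of each genotype apart, and because the 2 tested probes of Mt1 gave unlike differences between genotypes. The receptor's full palindrome was searched as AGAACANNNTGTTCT, which reads the same on both strands, and its 6-base arm as AGAACA on both strands, so the palindrome also counts as arms. The only palindrome in the 17 windows lay at 1 of the 6 starts of Sgk1, 189 bases before it, at chr10:21993640-21993889 on the plus strand. Over all 32851 mouse windows of this length, 3 (0.00913%) held the palindrome and 16.1% held an arm. In the 17 windows, arms lay in Sgk1, in windows with and without the palindrome, and in Tsc22d3. The arm of Tsc22d3 lay 185 bases before 1 of its starts. Metal response elements were searched as TGCACNC or TGCGCNC on both strands, and 21.4% of all windows held one. Mt2 at chr8:94172368-94172617 had 3, Mt1 at chr8:94178839-94179088 had 1, both on the plus strand, and Hif3a had 1. The capitals mark the palindrome in Sgk1 and the metal response elements in the other windows; such matches describe the letters and were not tested for binding.
Sgk1: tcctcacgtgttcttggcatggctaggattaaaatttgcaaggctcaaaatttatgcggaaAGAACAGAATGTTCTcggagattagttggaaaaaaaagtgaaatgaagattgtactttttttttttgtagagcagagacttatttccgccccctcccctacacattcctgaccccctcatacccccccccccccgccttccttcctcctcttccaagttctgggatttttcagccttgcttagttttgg
Mt1: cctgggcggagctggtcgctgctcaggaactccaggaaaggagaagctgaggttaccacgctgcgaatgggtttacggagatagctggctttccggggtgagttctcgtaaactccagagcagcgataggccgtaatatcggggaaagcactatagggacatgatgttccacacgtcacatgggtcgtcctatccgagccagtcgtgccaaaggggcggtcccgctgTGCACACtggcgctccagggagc
Mt2: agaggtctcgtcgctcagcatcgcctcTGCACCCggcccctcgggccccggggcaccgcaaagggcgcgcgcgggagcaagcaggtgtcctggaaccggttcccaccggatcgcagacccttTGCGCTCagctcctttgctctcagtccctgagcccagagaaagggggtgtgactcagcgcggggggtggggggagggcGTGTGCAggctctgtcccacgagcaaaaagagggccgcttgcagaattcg

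No member passed the test. In limma with Benjamini-Hochberg adjustment over the 38463 probes, 0 of the 15 member probes had an adjusted p under 0.05, where 0.0286% of all tested probes (11) did. At an unadjusted p under 0.05, 5 member probes were called, all of them higher in the transgenic samples, where 2.99% of all probes were. These were both tested probes of Fkbp5, both of Cdkn1a and 1 of Mt1. For 13 of 15 member probes (86.7%) the transgenic mean lay above the wild-type mean, against 48.1% of all tested probes. In 6 of 15 all transgenic samples lay above all wild-type samples, against 6.68% of all probes, and in 0 of 15 did they all lie below (7.26% of all probes). The median log2 difference over the 15 probes was 0.21, and -0.01 over all tested probes. One of the 15, the Cdkn1a probe A_55_P1976204, entered the fit only through the transgenic group, so the counts are given without it as well. Of the 14 member probes well above background on all 6 arrays, 12 lay above the wild-type mean, 4 were higher at an unadjusted p under 0.05 and 5 had separate groups, all higher. Over all 35552 probes that met that limit, the shares were 45.6%, 2.71% and 6.24%. Taking each gene by its brightest tested probe, 8 of 10 genes lay above the wild-type mean, with a median of 0.20. Without wild-type replicate 1, whose array was alone on slide 1, 14 of 15 probes lay above the wild-type mean (48.1% of all probes) and 7 had separate groups, all higher (13.0% of all probes).

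**Figure D1:**
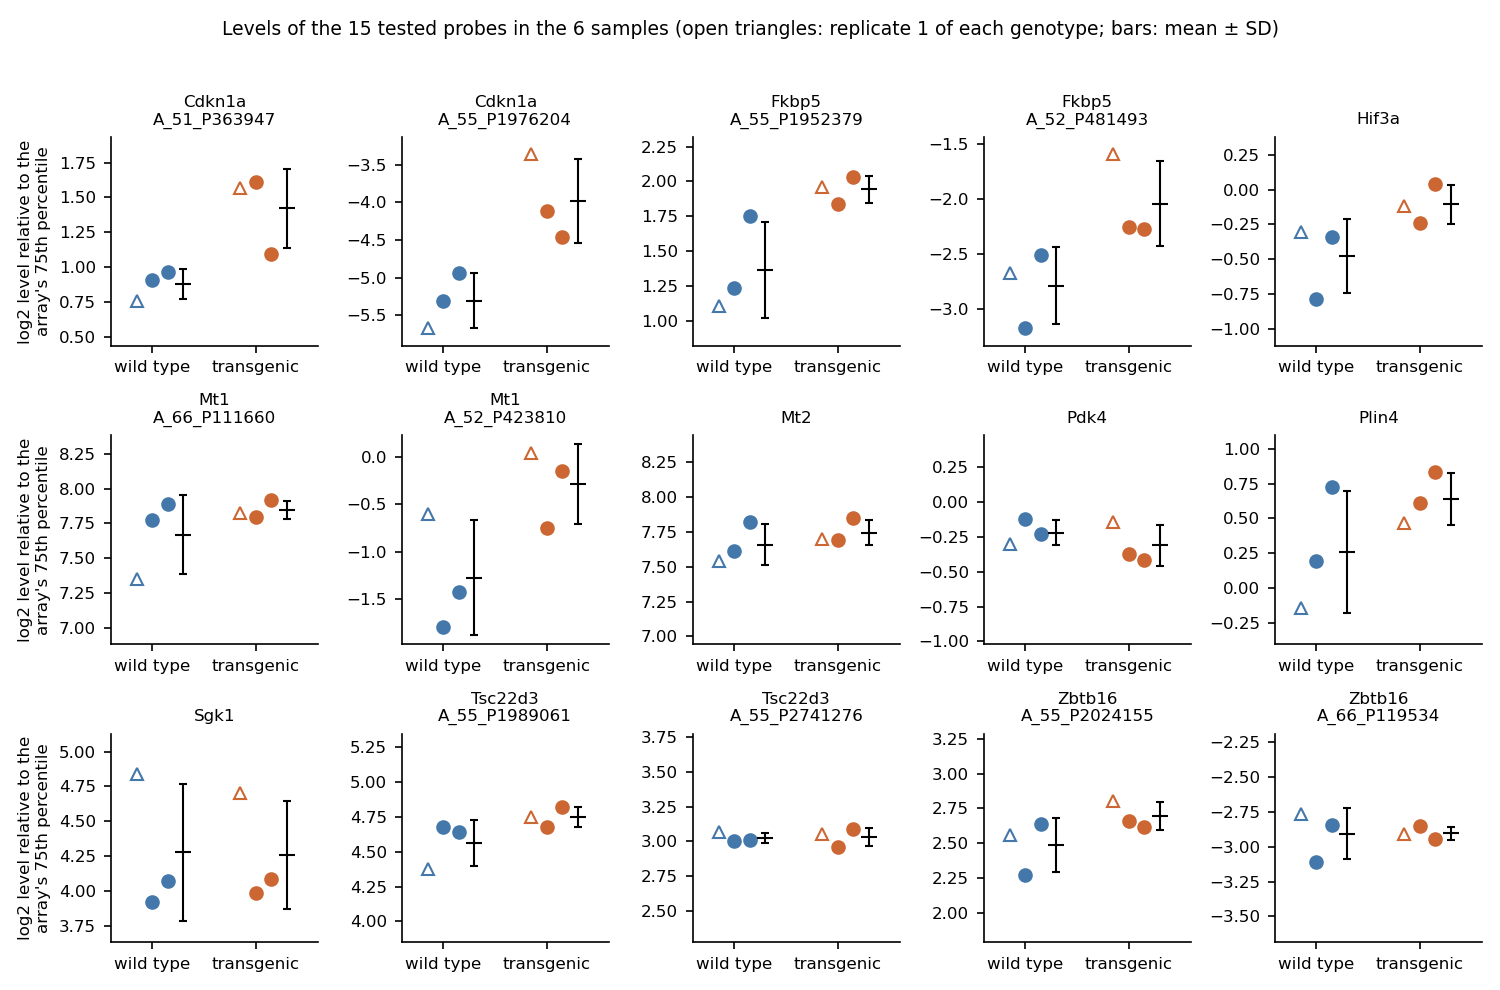
Log2 level of each of the 15 tested probes (y axis, relative to the array's 75th percentile) in the 3 wild-type (blue) and 3 transgenic (orange) samples, with the mean ± SD in black, open triangles for replicate 1 of each genotype and a scale of its own for each panel. Both Fkbp5 probes and both Cdkn1a probes have all transgenic samples above all wild-type samples, while both open triangles of Sgk1 lie above all other samples of that gene.

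The feedback gene of the group, Fkbp5, encodes an HSP90 cochaperone that lowers the receptor's affinity for hormone. Levels are given as log2 relative to the array's 75th percentile, so that 0 is the brightness of the probe at that percentile. The brighter Fkbp5 probe (A_55_P1952379, mm9 chr17:28536060-28536119, near the transcript's end) read 1.11, 1.23 and 1.75 in the wild-type replicates 1 to 3 and 1.96, 1.84 and 2.03 in the transgenic replicates 1 to 3. All 3 transgenic samples were above all wild-type samples, and wild-type replicate 3 came closest to them. The log2 difference was 0.58 ± 0.18 (SE, here and below, with 3 samples in each genotype; limma adjusted p = 0.786), with a fold of 1.50. Its 95% confidence interval, which like the others below is not adjusted for the number of probes, ran from 1.1 to 2.04 in fold. The second probe (A_52_P481493, chr17:28574995-28575054) lies early in the same transcript and was dim. It read -2.67, -3.17 and -2.51 in wild type and -1.60, -2.25 and -2.28 in transgenic samples, again without overlap. Its log2 difference was 0.74 ± 0.25 (limma adjusted p = 0.831), so both ends of the transcript gave the same direction, and with normexp background correction it was 0.40. On the 5 arrays of slide 2 the log2 differences were 0.45 and 0.80 for the brighter and the dimmer probe.

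Cdkn1a encodes the cell cycle inhibitor p21, a target of both p53 and the glucocorticoid receptor. Its main probe (A_51_P363947, mm9 chr17:29237377-29237436) matches both RefSeq transcripts named for it in the files. It read 0.76, 0.91 and 0.97 in wild type and 1.57, 1.61 and 1.1 in transgenic samples. Transgenic replicates 1 and 2 stood well above the rest and replicate 3 lay just above the highest wild-type sample. The fold was 1.46 (log2 difference 0.55 ± 0.16, limma adjusted p = 0.725, interval of the fold 1.11 to 1.92). A second probe (A_55_P1976204, chr17:29235299-29235358), for a separate Ensembl transcript, was near the detection limit and was well above background on 2 of the 3 wild-type arrays, so that it entered the fit only through the transgenic group. It read -5.67, -5.31 and -4.94 in wild type and -3.36, -4.12 and -4.46 in transgenic samples. The groups did not overlap, with a log2 difference of 1.33 ± 0.32 (limma adjusted p = 0.552) that rests on wild-type values near background. With normexp, whose added offset by construction shrinks differences of dim probes, it was 0.26.

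Of 19 tested p53 targets other than Cdkn1a, 14 lay above and 5 below the wild-type mean, with a median log2 difference of 0.11 and 0 called. The 4 with the smallest p were Zmat3, which encodes an RNA-binding protein, with a log2 difference of 0.28 ± 0.13, the death receptor gene Fas with 0.23 ± 0.10, Plk2, a kinase gene, with -0.22 ± 0.15, and Dcxr, a sugar reductase gene, with 0.44 ± 0.35. Their limma adjusted p was 0.843. At an unadjusted p under 0.05, 0 of the 19 were called.

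**Figure D2:**
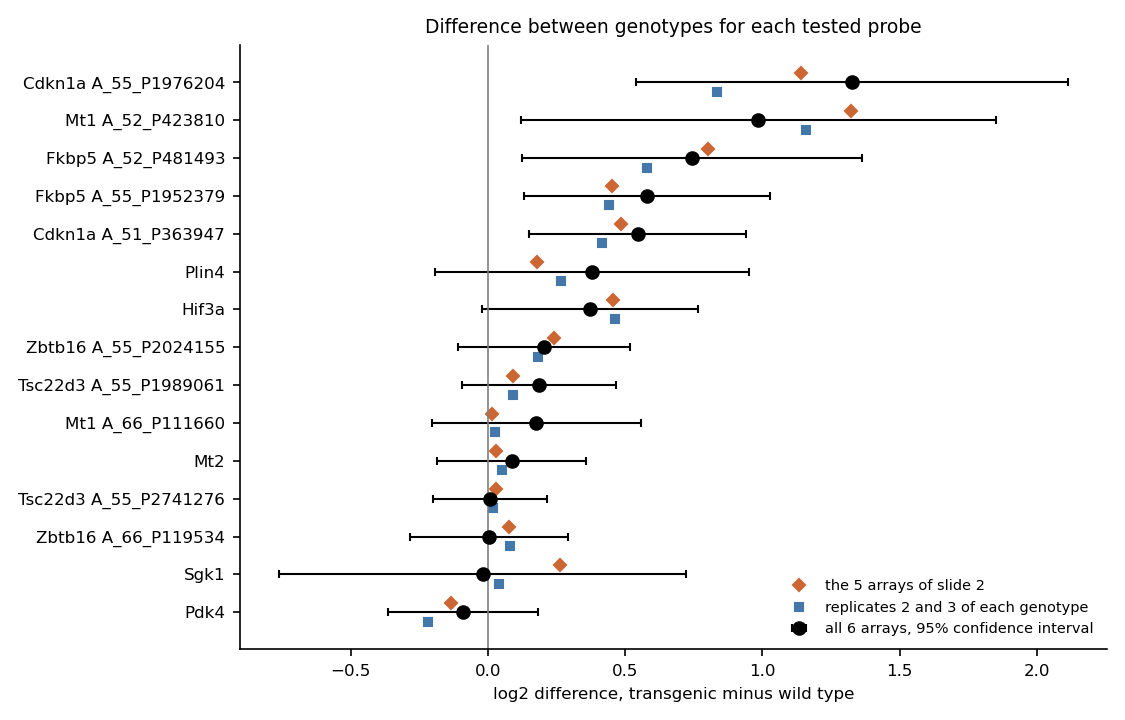
Log2 difference between genotypes (x axis, transgenic minus wild type) for each of the 15 tested probes over all 6 arrays with its 95% confidence interval (black), over the 5 arrays of slide 2 (orange) and over replicates 2 and 3 of each genotype (blue). The intervals of both Fkbp5 and both Cdkn1a probes lie above 0 before adjustment, that of Sgk1 runs from -0.76 to 0.72, and Pdk4 has the lowest difference, -0.09.

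The transcriptional regulators of the group differed less. Tsc22d3 encodes GILZ, a leucine zipper protein that mediates anti-inflammatory actions of glucocorticoids. Its brightest probe (A_55_P1989061, mm9 chrX:137074094-137074153) read 4.37, 4.68 and 4.64 in wild type and 4.75, 4.68 and 4.82 in transgenic samples. Wild-type replicate 2 and transgenic replicate 2 were nearly equal, so the groups only just failed to overlap, and wild-type replicate 1 was the lowest. The log2 difference was 0.19 ± 0.11 (limma adjusted p = 0.843), and 0.09 on slide 2 alone. A second probe (A_55_P2741276, chrX:137074801-137074860) read 3.07, 3.01 and 3.01 against 3.05, 2.96 and 3.09, a log2 difference of 0.01 ± 0.09. The interval of its fold, 0.87 to 1.16, leaves out a change as large as the point estimates of Fkbp5 or Cdkn1a.

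Zbtb16 encodes the zinc finger repressor PLZF. Its bright probe (A_55_P2024155, mm9 chr9:48462419-48462478) read 2.56, 2.27 and 2.64 in wild type and 2.81, 2.66 and 2.62 in transgenic samples. Transgenic replicate 3 fell below wild-type replicate 3, so the groups overlapped, and the log2 difference was 0.21 ± 0.13 (limma adjusted p = 0.843). Without wild-type replicate 2 it was 0.10. The dim probe A_66_P119534, whose mm9 match from 48473399 to 48525415 on chromosome 9 spans an intron, ranged from -3.11 to -2.76 in wild type and from -2.94 to -2.85 in transgenic samples. Its transgenic values lay inside the wild-type range.

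Hif3a encodes an alpha subunit of the hypoxia-inducible factors, some isoforms of which oppose the other subunits. It read -0.31, -0.79 and -0.34 in wild type and -0.12, -0.24 and 0.04 in transgenic samples (A_55_P2015541, mm9 chr7:17616855-17616914). The groups did not overlap, with wild-type replicate 2 lowest and transgenic replicate 3 highest. The fold was 1.29 (log2 difference 0.37 ± 0.16, interval of the fold 0.985 to 1.70, limma adjusted p = 0.843). Without wild-type replicate 2 the log2 difference was 0.22. Of 15 targets of hypoxia-inducible factors, 5 lay above and 10 below the wild-type mean, with a median of -0.04 and 0 called. Among them Car9, a carbonic anhydrase gene, had -0.37 ± 0.18, and Bnip3, a mitophagy gene, -0.11 ± 0.12.

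Sgk1 encodes a serum- and glucocorticoid-regulated kinase that acts on ion channels and transporters. Its bright probe (A_51_P118237, mm9 chr10:21719390-21719449) read 4.84, 3.92 and 4.07 in wild type and 4.70, 3.98 and 4.08 in transgenic samples. Replicate 1 of each genotype was high and the other 4 samples lay between 3.92 and 4.08, so that the genotypes overlapped almost completely. The log2 difference between genotypes was -0.02 ± 0.30 (interval of the fold 0.59 to 1.65, limma adjusted p = 0.989). In a fit that also took up whether a title begins with 7 or 8, it was -0.02 ± 0.10. Replicate 1 was 0.84 above the mean of replicates 2 and 3 in wild type and 0.67 above it in the transgenic group, in log2. Sgk1 was the only one of the 15 member probes for which both samples with titles beginning with 7 lay above the other 4, an order found in 11.5% of all tested probes. This order was looked at after the values were seen, so it is given as a description. The labels do not say what the numbers mean, and in wild type replicate 1 was also the array alone on slide 1, so number and slide cannot be told apart there.

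The other 25 genes known to respond to glucocorticoids were set beside Sgk1 in the same way. In 20 of 25, replicate 1 was above the mean of the other 2 samples in both genotypes, against 30.6% of all tested probes. In 6 of 25 both lay above the 4 others. Dusp1, an immediate phosphatase of MAP kinases named after its values were seen, read 2.74, 1.86 and 1.79 in wild type and 2.75, 2.19 and 2.32 in transgenic samples, so that replicate 1 of each genotype was again the highest. Among the 10 genes themselves, only Sgk1 and Zbtb16 were higher in replicate 1 of both genotypes, judged by their brightest probes. Fkbp5 and Tsc22d3 did not share the order: wild-type replicate 1 had the lowest value of either gene's brightest probe. Their second tested probes were higher in replicate 1 of both genotypes, by 0.17 and 0.67 for Fkbp5 and by 0.06 and 0.03 for Tsc22d3 (wild type, then transgenic, in log2). Over replicates 2 and 3 of each genotype alone, 9 of 10 genes were above wild type, with a median log2 difference of 0.14, and over all tested probes 48.4% were.

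**Figure D3:**
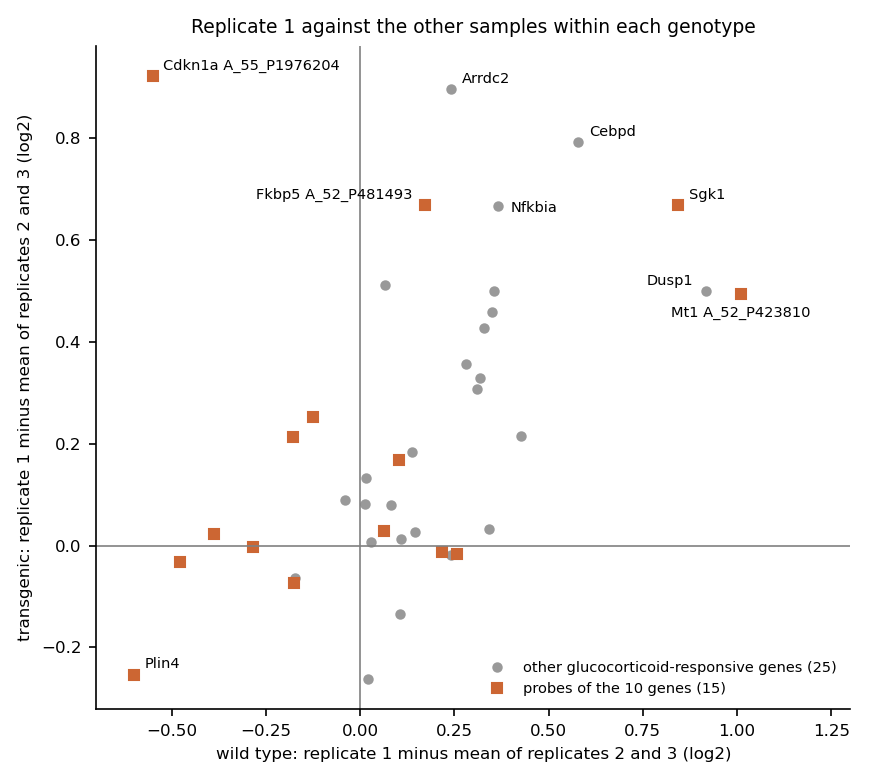
Replicate 1 minus the mean of replicates 2 and 3, in wild type (x axis, log2) and in the transgenic group (y axis, log2), for the 15 tested member probes (orange squares) and 25 other genes known to respond to glucocorticoids (grey circles). Sgk1 lies at 0.84 and 0.67, near Dusp1, and the dimmer Mt1 probe lies at 1.01 and 0.49.

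Neither metabolic member passed the test. Plin4, which encodes a coat protein of lipid droplets, read -0.14, 0.19 and 0.72 in wild type and 0.47, 0.61 and 0.84 in transgenic samples (A_51_P495780, mm9 chr17:56240055-56240114). Wild-type replicate 3 lay among the transgenic samples, and the log2 difference was 0.38 ± 0.23 (limma adjusted p = 0.843). On slide 2 alone it was 0.18, and leaving out wild-type replicate 3 instead gave 0.61. Pdk4 encodes a kinase that shuts down pyruvate dehydrogenase during fasting. It read -0.30, -0.12 and -0.23 in wild type and -0.14, -0.37 and -0.42 in transgenic samples (A_51_P350453, chr6:5433441-5433500). The groups overlapped, with a log2 difference of -0.09 ± 0.11 (interval of the fold 0.78 to 1.13), so these data leave out a rise of the size estimated for Fkbp5. Of 17 tested genes of fatty acid oxidation and PPAR targets, 11 lay above and 6 below the wild-type mean, with a median of 0.07 and 0 called. The uncoupling protein genes Ucp2 and Ucp3 had log2 differences of 0.48 ± 0.17, with overlapping groups, and 0.30 ± 0.12, with separate groups. Acadl, a fatty acid oxidation gene, had -0.24 ± 0.10, with all transgenic samples below all wild-type samples.

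Mt1 and Mt2 encode metallothioneins, small cysteine-rich proteins that bind zinc and copper. Their RefSeq-transcript probes had a deposited signal of 66182 to 145751 intensity units for Mt1 and 75572 to 139005 for Mt2, and no spot of any array was saturated. The Mt1 probe (A_66_P111660, mm9 chr8:96704165-96704224) read 7.35, 7.77 and 7.89 in wild type and 7.82, 7.80 and 7.92 in transgenic samples. The Mt2 probe (A_51_P246317, chr8:96697371-96697430) read 7.54, 7.61 and 7.82 against 7.70, 7.69 and 7.85. In both genes wild-type replicate 1 was the lowest sample and the groups overlapped. The log2 differences were 0.18 ± 0.16 for Mt1 and 0.09 ± 0.11 for Mt2. They were 0.02 and 0.03 on slide 2 alone, and 0.28 and 0.17 without wild-type replicate 3.

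A second Mt1 probe (A_52_P423810, mm9 chr8:96703844-96703903) is annotated to a predicted transcript variant of the gene, which the annotation of the first probe also lists. It read -0.60, -1.79 and -1.43 in wild type and 0.04, -0.76 and -0.15 in transgenic samples. Wild-type replicate 1 lay above transgenic replicate 2, so the groups overlapped. The log2 difference was 0.99 ± 0.35 (fold interval 1.09 to 3.60, limma adjusted p = 0.843), and on slide 2 alone 1.32 (limma adjusted p = 0.329 with slide as a block). The 2 Mt1 probes thus gave log2 differences of 0.18 and 0.99, and the difference between them was not tested. Metallothionein genes resemble one another, so the first 30 bases of the 3 probes are shown. The longest run of bases shared between the full Mt2 probe and the bright Mt1 probe was 7, and between the 2 Mt1 probes 4. These runs compare probe with probe, so whether a probe also binds RNA of another metallothionein gene was not tested.
Mt1 A_66_P111660: cctgtttactaaacccccgttttctaccga
Mt1 A_52_P423810: aactggctctgagaaatgtcctttgcttcc
Mt2 A_51_P246317: agaagcctagccttttttgtacaaccctga

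Of 14 genes of zinc and metal handling, 6 lay above and 8 below the wild-type mean, with a median of -0.03 and 0 called. Hmox1, which encodes the heme-degrading enzyme heme oxygenase 1, had the smallest p, with a log2 difference of 0.39 ± 0.10 and no overlap (limma adjusted p = 0.653). The zinc importer gene Slc39a14 had 0.22 ± 0.09. Mt3, the brain metallothionein, read 3.17, 2.68 and 2.76 in wild type and 2.62, 2.74 and 2.77 in transgenic samples, a log2 difference of -0.16 ± 0.15.

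The nearest family members of the 10 genes were evenly divided, with 10 of 20 above and 10 below the wild-type mean and a median of -0.01. Plin5, a lipid droplet protein gene of oxidative tissues, read -2.17, -1.98 and -1.96 in wild type and -1.50, -1.50 and -1.19 in transgenic samples (log2 difference 0.64 ± 0.13, limma adjusted p = 0.343). Sgk2, a relative of Sgk1, read 0.01, -0.31 and 0.18 against -0.59, -0.96 and -0.58 (log2 difference -0.67 ± 0.17, adjusted p = 0.624). Both had separate groups, in opposite directions, and neither was called. Fkbp4, the cochaperone that takes the place of the Fkbp5 protein on the activated receptor, had -0.18 ± 0.08.

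Among the 25 other genes known to respond to glucocorticoids, 21 lay above the wild-type mean and 4 below, with a median log2 difference of 0.18. None was called in limma, 2 were higher at an unadjusted p under 0.05 (2.99% of all probes), and 6 had separate groups, all higher (6.68% of all probes). Lcn2, which encodes the iron-carrier-binding protein lipocalin 2 and is also induced in inflammation, read -3.44, -3.83 and -3.53 in wild type and -2.82, -3.06 and -2.55 in transgenic samples. The log2 difference was 0.79 ± 0.17 (limma adjusted p = 0.431). Arl4d, a small GTPase gene, had 0.54 ± 0.20, Txnip, which encodes a thioredoxin inhibitor, 0.40 ± 0.17, and Mertk, a phagocytic receptor gene, 0.35 ± 0.14. On slide 2 alone 22 of 25 lay above wild type, with a median of 0.22.

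The receptor and its machinery leaned the other way over all 6 arrays. Of 26 tested genes for the receptors, chaperones, coregulators, steroid metabolism and upstream hormones, 4 lay above and 22 below the wild-type mean, with a median of -0.06 and 0 called. At an unadjusted p under 0.05, 2 were lower (2.60% of all probes), and 6 had separate groups on the lower side (7.26% of all probes). On slide 2 alone 13 lay above and 13 below, with a median of -0.004. There 8 of the 26 had separate groups on the lower side and 2 on the higher side. Of all 38463 tested probes, 5393 and 5004 did. Over replicates 2 and 3 of each genotype alone, 8 of 26 lay above (48.4% of all tested probes), with a median of -0.02. The count of genes above and below thus depended on the samples included. The glucocorticoid receptor gene Nr3c1 read 3.88, 3.73 and 3.52 in wild type and 3.74, 3.47 and 3.42 in transgenic samples (log2 difference -0.17 ± 0.14). The mineralocorticoid receptor gene Nr3c2 had -0.11 ± 0.13.

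Crh, which encodes corticotropin-releasing hormone and is made in hindbrain nuclei such as the inferior olive as well as in the hypothalamus, read 1.13, 0.90 and 1.03 in wild type and -0.30, 0.39 and 0.06 in transgenic samples. All transgenic samples were below all wild-type samples, with a log2 difference of -0.97 ± 0.19 (limma adjusted p = 0.335), and -0.91 on slide 2 alone. Hsd11b1, whose enzyme regenerates active glucocorticoid inside cells, read 3.51, 3.16 and 3.11 against 3.02, 2.87 and 2.80 (log2 difference -0.36 ± 0.14, limma adjusted p = 0.843). Hsd11b2 and Avp were below the background limit on all 6 arrays.

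**Figure D4:**
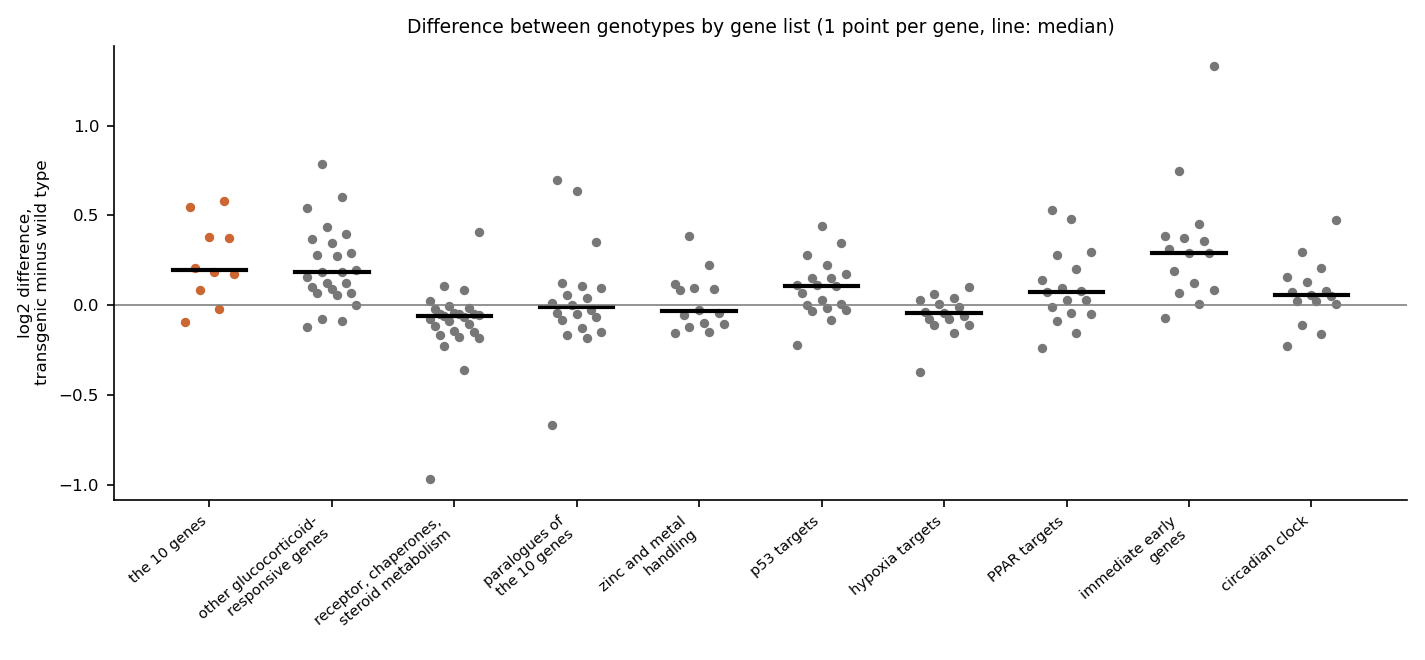
Log2 difference between genotypes (y axis, transgenic minus wild type) of every tested gene in 10 lists, 1 point per gene by its brightest tested probe, with the list's median as a line and the 10 glucocorticoid-responsive genes in orange. The 10 genes and the 25 other responsive genes have medians of 0.20 and 0.18, the receptor list has -0.06 with Crh lowest at -0.97, and the immediate early genes have 0.29 with Egr2 highest at 1.33.

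Lists of rapid-response and clock genes, some of which also answer to glucocorticoids, were read as well. Of 15 immediate early genes, 14 lay above the wild-type mean (48.1% of all probes), with a median of 0.29 and 0 called. In 6 of 15 the groups were separate, all higher (6.68% of all probes). The log2 difference of Egr2, a growth-response transcription factor gene, was 1.33 ± 0.12 (limma adjusted p = 0.0662). That of Atf3, a stress-induced transcription factor gene, was 0.75 ± 0.10 (limma adjusted p = 0.147). Both probes were dim, with wild-type and transgenic means of -4.68 and -3.35 for Egr2 and of -3.32 and -2.57 for Atf3. Of 15 clock genes, 12 lay above, with a median of 0.06. The clock output gene Ciart had 0.48 ± 0.11 (limma adjusted p = 0.453) and the core clock gene Arntl -0.23 ± 0.11.

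Among markers of other cell types 0 were called, but microglia and mature oligodendrocyte markers differed in median between the genotypes, and their part in the values above was not tested. Of 12 microglia markers, 11 lay above the wild-type mean (48.1% of all probes), with a median of 0.54. At an unadjusted limma p under 0.05, 9 were higher (2.99% of all probes) and 1, Itgam, was lower (2.60%). Their summed level (linear, in units of the array's 75th percentile) was 115 to 133 in wild type and 116 to 125 in transgenic samples. Itgam alone made up 81.9 to 99.8 of that sum in wild type and 66.1 to 80.1 in transgenic samples, and the other 11 markers summed to 32.5 to 33.2 and 44.5 to 50.1. Of 12 markers of mature oligodendrocytes, 11 lay below, with a median of -0.30 and a summed level of 400.5 to 479.6 against 337.3 to 359.8. The astrocyte marker Gfap had a log2 difference of 0.59 ± 0.11 with separate groups (limma adjusted p = 0.325). Slc1a2 and Slc4a4, also astrocyte markers, had -0.23 ± 0.13 and -0.14 ± 0.08, with separate groups on the lower side. For astrocyte markers the count was 5 of 12 above, with a median of -0.03, and for endothelial markers 5 of 12, with -0.07. It was 8 of 10 for blood cells (median 0.23), 6 of 9 for meninges (0.03), 5 of 9 for pericytes and smooth muscle (0.01), 5 of 12 for choroid plexus (-0.06) and 1 of 8 for oligodendrocyte precursors (-0.04). All markers of these lists were well above background on all 6 arrays, as were the Purkinje cell, granule cell and brainstem neuron markers of the labelled tissue. Of 12 forebrain and hypothalamic markers, 8 were well above background on all 6 arrays.

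The arrays differed in brightness. Wild-type replicate 1 had a 75th percentile of 405.7 intensity units, the others 535.0 to 609.2, and 64.8% of probes were well above background there against 68.6% to 71.7%. Over the 15 member probes, wild-type replicate 1 was the lowest sample 7 times and wild-type replicate 2 lowest 6 times, while transgenic replicate 3 was the highest 7 times. Centred on each probe's mean, the median level of the member probes was -0.16, -0.26 and -0.02 in wild-type replicates 1 to 3 and 0.17, 0.05 and 0.15 in transgenic replicates 1 to 3, so that wild-type replicate 3 lay nearest the transgenic samples.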

How the data were processed

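The scanner files that the authors deposited hold linear intensity values per spot, from which Feature Extraction 10.7.1.1 had subtracted background, with probe positions on mm9, per the file headers (version 9.5.1.1 in the submitters' processing notes). A table of intensity values processed by the authors was also deposited and was used as an alternative. Control spots and 39 to 84 outlier spots an array were dropped, spots of a probe averaged, and levels taken as log2 minus that of the 75th percentile on the same array. A probe entered the fit if it was well above background throughout 1 genotype or both. The fit was limma 3.58.1 in R 4.3.3 (lmFit, eBayes, Benjamini-Hochberg over all tested probes, threshold 0.05), tested on simulated data. The number of arrays limits the precision.

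The 10 genes, the gene lists, the markers and the tests were chosen with earlier results of these data known. All probes of the 10 genes are named, and up to 4 genes of each other list by smallest p; Nr3c1, Nr3c2, Mt3, Dusp1, Itgam, Hsd11b2 and Avp were named after their values were seen. A gene of a list is read by its tested probe with the highest mean level. Names came from RefSeq by accession for 32994 probes and by symbol for 10224, and from the files for 13387. Motifs were searched in RefSeq promoter windows (GRCm38.p6). Exon and intron positions of the probes were not analysed here.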

Additional observations from a re-analysis of the deposited data

How the results depend on the processing

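Of 244 alternative values for the 15 member probes, 227 kept their direction and none passed the threshold (limma adjusted p 0.217 to 0.997); 17 reversed, all in probes with a difference near 0. Sgk1 (-0.02) became 0.0057 with quantile normalization, 0.024 with normexp and 0.0052 with the authors' table. It became 0.26 with slide as a block and 0.26 with array weights, and ran from -0.24 to 0.26 without 1 sample (0.26 without wild-type replicate 1). Slide 1 held only wild-type replicate 1, so slide as a block gave the same values as leaving it out. Both settings are counted among the 244. Some other settings could not change a direction, because they left every log2 difference as it was and could move only its p-value. These were no filter on dim probes, only probes above background on every array, and an intensity trend. The first digit of the title as a block and 1 probe per gene did the same. Their values are counted among both the 244 and the 227, so the 227 overstates how often direction was tested. Zbtb16 A_66_P119534 (0.0041) became -0.028 with quantile normalization, -0.10 with normexp and -0.028 with the authors' table, and ran from -0.099 to 0.077 without 1 sample. The authors' table was nearly the quantile-normalized signal: 99.986% to 99.996% of probes on each array lay within 0.01 log2 of it. Quantile normalization and the authors' table are thus nearly 1 setting, although both are counted among the 244. Tsc22d3 A_55_P2741276 (0.0074) ran from -0.019 to 0.044 without 1 sample. The cause was not tested.

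The 11 probes called in all became 37 with normexp, 4 with no filter on dim probes, 23 with only probes above background on all 6 arrays, 34 with an intensity trend, 94 with array weights, 24 when probes of a gene were averaged, 12 with the first digit of the title as a block and 45 at an adjusted p under 0.1. Without 1 sample the count was 0 to 10: 0 without wild-type replicate 3, transgenic replicate 1 or transgenic replicate 2. The member count was 0 under all of these. Dim probes lie close to background, and normexp shrinks their differences by construction. The comparison of replicate 1 with replicates 2 and 3 within each genotype, and the counts of members without wild-type replicate 1 or over probes above background on all 6 arrays, were chosen after seeing the data, as were the sums without Itgam. No paired analysis was possible because the labels give no replicate numbers shared by the genotypes; the numbers used here only name samples.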
